A study of Homo sapiens with 12 samples.

Results

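Histone H3 acetylated at lysine 9 (H3K9ac) was measured at 863 intergenic regions of the MOLM-13 genome, each lying at least 10 kb from the body of every RefSeq coding gene. They were chosen by place and level from the 47648 regions of the deposited H3K9ac matrix: width under 5000 bp, chromosomes 1 to 5, 7, 9 to 12, 14 to 18 and 20 to 22, and a mean of at least 10 CPM (reads of a region, where the reads of all listed regions of a library add up to 1000000) over the 6 libraries. The level is therefore part of how the regions were selected and is given as a description, without a test; the treatment difference was not used in choosing them. Of the 863 regions, 359 overlapped an annotated long non-coding RNA (lncRNA) and 504 overlapped none.

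MOLM-13 is an established line of human acute myeloid leukaemia cells that carries a fusion of KMT2A with MLLT3. The study asked what inhibition of the acetyltransferase KAT6A does to the chromatin of these cells. In the 3 treated libraries the cells received WM-1119, an inhibitor of KAT6A, at 4 µM for 4 days, and the 3 control libraries came from cells given DMSO, whose dose and duration the labels do not state. All came from a single cell line with no further genotype named, and 6 input libraries of the same cells were not analysed here. The labels number the libraries 1 to 3 in each group but do not say whether they came from separate cultures, so the p-values measure the spread between these libraries, which may be technical. Each library pools many cells, so less acetylation per cell and fewer acetylated cells cannot be told apart.

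Acetylation of H3K9 is laid down by several lysine acetyltransferases and marks active promoters and enhancers. KAT6A belongs to the MYST family of acetyltransferases and works in complexes with BRPF proteins. Far from coding genes the mark is found at the promoters of lncRNAs and microRNA host genes, at transfer RNA genes, and at distal enhancers, the elements that hold much of the cell-type-specific control of haematopoietic genes.

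The reads counted in the listed regions ranged from 719329 to 12705348 a library, a 17.7-fold range. DMSO replicates 1 and 2 were the shallowest, with 719329 and 1298443 reads, and carried more background: 8.05 and 7.44 CPM per kb, where the remaining 4 libraries had 3.36 to 4.38. They stood apart from the other 4 on the first principal component, which held 70.9% of the variance, and a level of 10 CPM was 7.19 reads in DMSO replicate 1 and 127 reads in WM-1119 replicate 3. Results are therefore also given with DMSO replicates 1 and 2 left out. Markers of the myeloid lineage at gene ends reached 10 CPM for 4 of 8 genes, with CEBPA at 391 and SPI1 at 245 CPM, while FCER1G had no region there, CD33 was at 3.67 CPM, MPO at 9.56 and ITGAM at 2.66. Among the markers of other lineages, 0 of 4 T cell, 0 of 4 erythroid, 0 of 4 epithelial and 1 of 4 B cell genes (CD79A, 14.7 CPM) reached 10 CPM.

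Of the intergenic regions, 149 held the annotated start of a lncRNA. Start sequences are shown for 5 of them, because these are the lncRNAs to which the results below return: the region with the highest level, another lncRNA start with higher values after treatment, and 3 microRNA host genes. Each run spans the 250 bases before and the 50 bases from the start, 5′ to 3′, from RefSeq on GRCh38.p14, and capitals mark CG dinucleotides (CpG).
LOC100130992, chr10:22251822-22252121, plus strand: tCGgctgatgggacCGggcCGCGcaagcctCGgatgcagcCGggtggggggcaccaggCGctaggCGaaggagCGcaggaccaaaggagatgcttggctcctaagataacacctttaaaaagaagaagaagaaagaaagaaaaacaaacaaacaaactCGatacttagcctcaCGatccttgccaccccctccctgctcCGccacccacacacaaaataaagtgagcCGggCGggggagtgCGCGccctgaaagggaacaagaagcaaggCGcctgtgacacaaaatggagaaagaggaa
LINC02981, chr7:26398319-26398618, plus strand: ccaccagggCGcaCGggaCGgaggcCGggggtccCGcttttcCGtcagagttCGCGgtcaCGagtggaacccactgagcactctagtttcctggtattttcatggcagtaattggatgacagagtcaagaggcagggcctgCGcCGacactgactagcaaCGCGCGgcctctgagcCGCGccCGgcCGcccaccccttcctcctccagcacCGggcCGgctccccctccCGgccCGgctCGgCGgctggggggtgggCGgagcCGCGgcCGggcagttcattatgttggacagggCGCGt
MIRLET7A1HG, chr9:94166008-94166307, plus strand: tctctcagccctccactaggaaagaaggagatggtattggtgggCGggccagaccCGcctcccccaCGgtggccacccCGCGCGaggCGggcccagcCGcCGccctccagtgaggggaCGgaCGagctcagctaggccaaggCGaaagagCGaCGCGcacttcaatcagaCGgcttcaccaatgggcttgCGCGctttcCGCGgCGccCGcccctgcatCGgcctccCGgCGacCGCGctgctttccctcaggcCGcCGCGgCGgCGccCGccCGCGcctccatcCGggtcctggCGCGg
MIR155HG, chr21:25561895-25562194, plus strand: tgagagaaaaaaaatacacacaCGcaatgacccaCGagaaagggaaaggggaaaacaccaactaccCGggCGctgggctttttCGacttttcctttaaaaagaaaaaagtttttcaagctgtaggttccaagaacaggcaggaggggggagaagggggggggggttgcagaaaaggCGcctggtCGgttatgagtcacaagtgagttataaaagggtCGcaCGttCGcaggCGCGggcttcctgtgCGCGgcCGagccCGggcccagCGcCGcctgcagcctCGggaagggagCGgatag
MIR181A1HG, chr1:198937380-198937679, minus strand: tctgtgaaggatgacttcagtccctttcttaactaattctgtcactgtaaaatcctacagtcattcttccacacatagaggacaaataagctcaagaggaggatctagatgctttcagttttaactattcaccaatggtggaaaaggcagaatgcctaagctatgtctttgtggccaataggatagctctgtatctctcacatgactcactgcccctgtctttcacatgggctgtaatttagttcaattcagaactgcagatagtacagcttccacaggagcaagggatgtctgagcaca
The first 4 hold 17, 30, 38 and 20 CpG, and MIR181A1HG holds 0 in the same length at a GC content of 42.3%. The start of MIR155HG holds the letters TATAAA and TGANTCA (the letters bound by AP-1 factors), the start of MIR181A1HG holds TGANTCA, and that of LOC100130992 holds AGATAA, letters read by factors of the GATA family, each searched on both strands.

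The mature microRNAs of these host genes and of the miR-9 hosts are shown with the seed, bases 2 to 8, in capitals, since microRNAs with the same seed share most of their targets.
hsa-let-7a-5p, chr9:94175962-94175983, plus strand: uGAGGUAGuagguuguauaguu
hsa-let-7f-5p, chr9:94176353-94176374, plus strand: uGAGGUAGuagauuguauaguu
hsa-let-7d-5p, chr9:94178841-94178862, plus strand: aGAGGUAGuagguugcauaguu
hsa-miR-181a-5p, chr1:198859108-198859130, minus strand: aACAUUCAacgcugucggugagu
hsa-miR-181b-5p, chr1:198858925-198858947, minus strand: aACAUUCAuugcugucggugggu
hsa-miR-155-5p, chr21:25573983-25574006, plus strand: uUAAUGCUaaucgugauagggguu
hsa-miR-9-5p, chr5:88666902-88666924, minus strand (MIR9-2) and chr15:89368032-89368054, plus strand (MIR9-3): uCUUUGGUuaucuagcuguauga
The 3 let-7 microRNAs share the seed GAGGUAG, and miR-181a-5p and miR-181b-5p share ACAUUCA. Those of miR-155-5p and miR-9-5p, UAAUGCU and CUUUGGU, each stand alone here.

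The intergenic regions were mostly weak and narrow. Their mean level ran from 10.0 to 290.0 CPM with a median of 18.2, 472 of the 863 (54.7%) were under 20 CPM and 28 reached 100 CPM. The median width was 1418 bp. Per length, the median of 13.2 CPM per kb was close to the 13.01 of regions inside coding genes and below the 26.6 of regions at coding gene ends, meaning within 1000 bp of an end. On the same chromosomes, and with the same limits on width and level, there were 10519 regions, of which the intergenic ones made up 8.20% and those at coding gene ends 67.2%. The intergenic share varied from 4.13% on chromosome 12 to 15.4% on chromosome 20.

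Level varied with the annotation under the region. Regions holding a lncRNA start had a median of 27.9 CPM, those in a lncRNA body without a start (210 regions) 18.4 CPM, and those overlapping no lncRNA 16.8 CPM. Per length the order was the same for starts, at 17.7 CPM per kb, against 12.8 for lncRNA bodies and 12.6 without a lncRNA. Start positions were at hand for 253 of the 326 lncRNAs that the regions overlap, so some regions counted as bodies may hold a start. The highest medians were those of the 22 regions over transfer RNA genes, 44.3 CPM and 21.8 CPM per kb. A pseudogene was overlapped by 52 regions, a microRNA by 8, and 434 regions overlapped no annotated gene of any kind. The median distance to a coding gene was 29934 bp, 139 regions lay over 100 kb away, and 13 lay over 500 kb away.

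**Figure D1:**
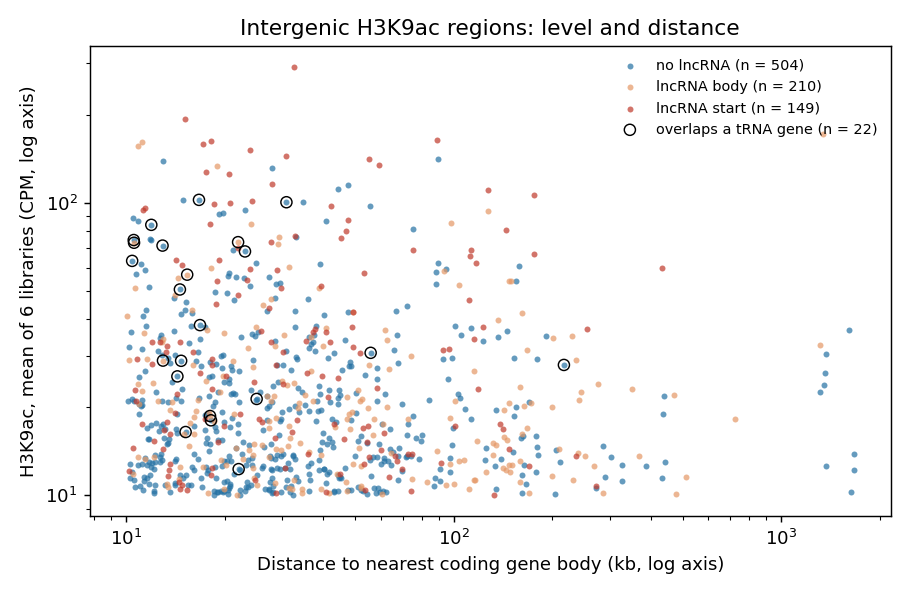
Mean H3K9ac of each of the 863 intergenic regions (vertical, CPM, log axis) against its distance to the nearest coding gene body (horizontal, kb, log axis). Colours give overlap with a lncRNA start, a lncRNA body or no lncRNA, and rings mark the 22 regions over a tRNA gene; the region at 290.0 CPM is the LOC100130992 start.

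The lncRNA starts under any listed region, whether among the 863 or not, held more CpG than those in none. RefSeq gave start sequences for 5299 lncRNA transcripts or genes of the same chromosomes lying at least 10 kb from coding genes. Of these, 175 lay in 149 of the 863 regions, 138 in a listed region that was not among the 863, and 4986 in no listed region. The median GC content was 61.0% for the starts in the intergenic regions and 45.0% for those in no region. The ratio of observed to expected CpG had a median of 0.658 against 0.203, and 56.0% against 7.70% of the starts reached a ratio of 0.6, a usual line for CpG islands. The 138 starts in other listed regions were close to those in the intergenic regions, with a median GC content of 58.3%, a median ratio of 0.593 and 49.3% at 0.6 or more, and 48.9% of all RefSeq promoters and 62.2% of coding promoters reached that ratio. The TATA letters TATAAA were found in 6.86% against 20.1%, and 11.5% of all RefSeq promoters of the same length hold them. The letters TGANTCA were found in 12.6% against 12.5% (all promoters 7.71%), TGTGGT, the RUNX letters, in 13.1% against 18.8% (all promoters 13.1%), and GAGGAAGT, the PU.1 letters, in 3.43% against 2.21% (all promoters 2.59%). The letters CCGGAAGT, ETS letters that end in the same GGAAGT as the PU.1 letters, were found in 3.43% against 0.782% (all promoters 4.14%), TTGCNNCAA, the C/EBP letters, in 1.71% against 2.63% (all promoters 1.98%), and AGATAA in 9.71% against 18.7% (all promoters 10.3%). The 138 starts in other listed regions held TATAAA in 7.25%, AGATAA in 10.9%, CCGGAAGT in 2.90% and GAGGAAGT in 2.90%. They held TGANTCA in 12.3%, TGTGGT in 22.5% and TTGCNNCAA in 0%. These are matches of letters on either strand and not sites of binding, and the start table held 253 of the 326 lncRNAs that the regions overlap.

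Of the 28 intergenic regions at 100 CPM or more, 15 held a lncRNA start, 4 lay in a lncRNA body and 9 overlapped no lncRNA. The highest was the start of LOC100130992 (chr10:22250557-22255331), 32542 bp from EBLN1, at 217, 212 and 275 CPM in the DMSO libraries and 350.0, 342 and 344 CPM with WM-1119. The start of MIR1915HG, 15142 bp from SKIDA1 and holding the MIR1915 hairpin, had 121, 190.2 and 232 CPM against 173, 205 and 233 CPM, and the groups overlapped. A region in LOC124900623, 1344556 bp from TENM3, had 122, 152 and 212 CPM against 142, 186 and 218 CPM, a level reached in a stretch with no coding gene nearby. The starts of LOC124903558, LOC105369728 and LOC105373928 and the lncRNA bodies SPEN-AS1 and SLC39A13-AS1 had means of 156 to 164 CPM. Outside lncRNAs, the region near SIRPA, which encodes an inhibitory receptor of myeloid cells, led with 114, 121 and 156 CPM against 144, 159 and 151 CPM. It was followed by regions near TEF (139 CPM), ANXA2R (132 CPM), RBX1 (115 CPM), RPS6KA1 (111 CPM) and DYNC1H1 (102 CPM), and by the tRNA gene regions near HAAO and CFAP126 (102 and 100.3 CPM).

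The share of each library's CPM that fell in the 863 regions was 2.67%, 2.58% and 2.44% in the DMSO libraries and 2.22%, 2.35% and 2.32% in the WM-1119 libraries. All 3 treated libraries were below all 3 controls, at 2.30% ± 0.0663 (SD, n = 3) against 2.56% ± 0.119 (SD, n = 3). The difference of -0.27 percentage points was -0.14 against DMSO replicate 3 alone, and -0.044 when only regions of at least 20 CPM were summed. Of the 863 summed regions, 195 had a WM-1119 mean under 10 CPM and 8 a DMSO mean under 10 CPM. The rule on level therefore bears on the separation of these shares. By class, the share of regions without a lncRNA was 1.32% ± 0.112 in DMSO and 1.14% ± 0.0297 with WM-1119, and that of lncRNA bodies 0.588% ± 0.0403 and 0.497% ± 0.0141 (SD, n = 3 each). The share at lncRNA starts was 0.661% ± 0.0332 and 0.657% ± 0.0240, and that at tRNA genes 0.105% ± 0.00828 and 0.112% ± 0.00620, differences smaller than the SD of the DMSO libraries (at tRNA genes larger than that of the WM-1119 libraries). Shares within a library say nothing of the total acetylation of a library. DMSO replicates 1 and 2 had both the highest background per kb and the highest share of regions without a lncRNA. Among the other 4 libraries the order differed: DMSO replicate 3 had the lowest background and the highest share, and WM-1119 replicate 1 the highest background and the lowest share. The part of background in the difference was not tested.

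**Figure D2:**
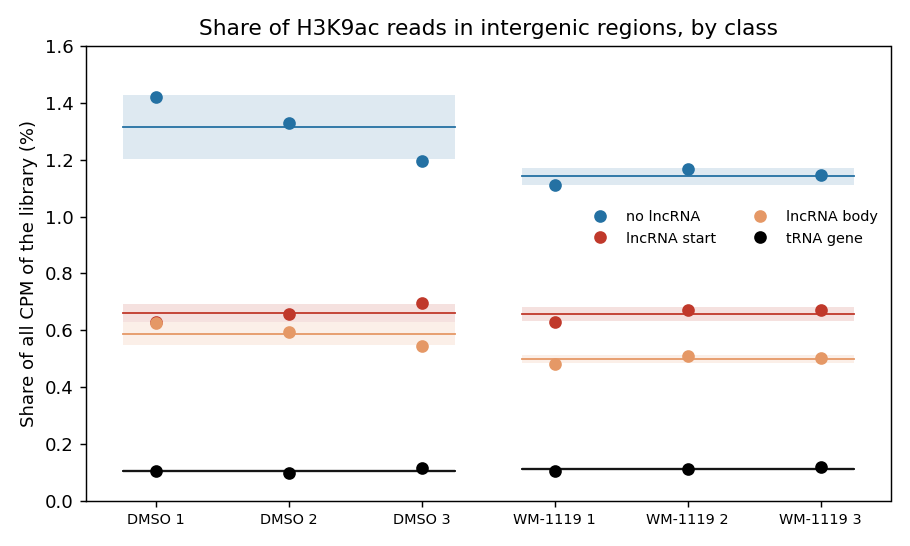
Share of all CPM of each library (vertical, %) falling in intergenic regions without a lncRNA, at lncRNA starts, in lncRNA bodies and at tRNA genes, for the 6 libraries (horizontal). Lines and bands are the mean and SD of 3 libraries. The 3 WM-1119 points lie below the 3 DMSO points for regions without a lncRNA and for lncRNA bodies, and overlap with them at starts and tRNA genes. The rule on level bears on the separation.

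Of the 863 intergenic regions, 3 fell with WM-1119 and 0 rose at an adjusted p under 0.05 (limma on log2(CPM + 1), Benjamini-Hochberg over 44763 regions). They were 2 regions of the lncRNA BALR6 and 1 region 435084 bp from BTBD3. Over all tested regions, 27 fell (0.0603%) and 0 rose (0%), and over the 14323 regions at a mean level of 10 CPM or more they were 0.189% and 0%. At an unadjusted p under 0.05, 176 of the intergenic regions were lower (20.4%) and 21 higher (2.43%). Over all tested regions 10.8% were lower and 2.58% higher at that threshold, and at 10 CPM or more 8.71% and 7.99%. The 3 treated libraries were all below the 3 controls in 203 intergenic regions and all above in 33. The rule on level bears on these counts: 195 of the 863 had a WM-1119 mean under 10 CPM and passed through the DMSO libraries alone, among them 76 of the 176, 81 of the 203 and 1 of the 3 calls, while 8 of the 863 had a DMSO mean under 10 CPM. Groups without overlap were found in 13.2% and 3.76% of all tested regions, and in 8.56% and 11.3% of those at 10 CPM or more. The 3 calls were 3 also with DMSO replicates 1 and 2 left out (1 of the 3 among them), 9 with each library's background subtracted, 0 with edgeR's quasi-likelihood test on the reads recovered for 5 libraries (22 lower and 15 higher at an unadjusted p under 0.05) and 0 with quantile normalization. They were 1 without DMSO replicate 1, WM-1119 replicate 2 or WM-1119 replicate 3, 0 without DMSO replicate 2, and 340 (41 of them higher) without DMSO replicate 3.

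The median log2 change of the 863 regions was -0.30 on the log2(CPM + 1) scale, with 640 of 863 lower, but it was 0.47 when each library was centred on its own median and 0.12 with edgeR. Centring on the median moved the median of all tested regions from -0.47 to 0.30 and turned the split at an unadjusted p under 0.05 from 176 lower and 21 higher to 2 lower and 141 higher. Against DMSO replicate 3 alone the median of the intergenic regions was -0.06, with 491 lower. The classes had medians of -0.11 (lncRNA starts), -0.36 (lncRNA bodies), -0.34 (no lncRNA), 0.00 (tRNA genes) and 0.08 (pseudogenes). Regions at lncRNA starts with a CpG ratio of at least 0.6 (80 regions, median level 30.9 CPM) had a median of 0.04, and the 69 other start regions (23.0 CPM) one of -0.25; against DMSO replicate 3 alone these were 0.04 and -0.06.

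These medians moved with level, in intergenic regions as elsewhere. Between 10 and 20 CPM the median log2 change was -0.43 for the 472 intergenic regions, -0.48 inside coding genes and -0.16 at coding gene ends. From 20 to 50 CPM it was -0.17, -0.15 and 0.08, from 50 to 100 CPM 0.11, 0.16 and 0.18, and at 100 CPM or more 0.22 (28 intergenic regions), 0.26 and 0.26. Against DMSO replicate 3 alone the intergenic medians in these 4 bands were -0.04, -0.06, -0.09 and -0.18. With all 6 libraries the intergenic medians were below those of coding gene ends in all 4 bands, and without DMSO replicates 1 and 2 the medians did not increase with level.

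**Figure D3:**
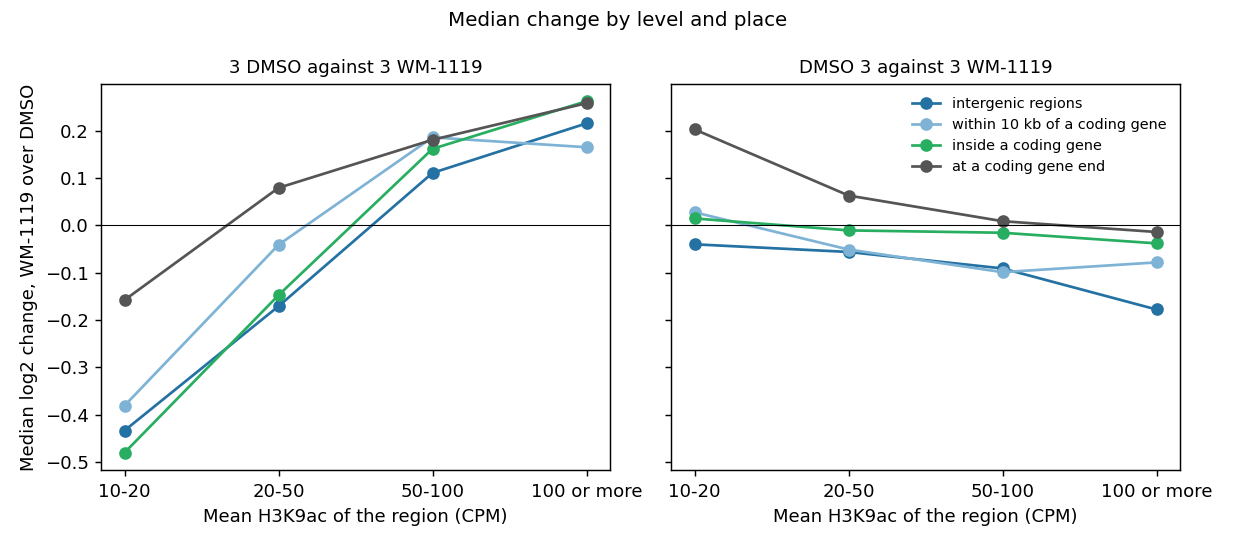
Median log2 change (vertical, WM-1119 over DMSO, log2(CPM + 1) scale) by mean level of the region (horizontal, 4 bands in CPM) for intergenic regions, regions within 10 kb of a coding gene, inside one and at gene ends. With all 6 libraries (left) the intergenic medians go from -0.43 to 0.22, and against DMSO replicate 3 alone (right) from -0.04 to -0.18.

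BALR6, a lncRNA described in B cell acute leukaemia with KMT2A rearrangement, held the region with the smallest p among the 863, chr3:17979463-17981734, 236832 bp from TBC1D5. It had 50.05, 35.4 and 48.1 CPM in the DMSO libraries and 12.99, 12.4 and 15.5 CPM with WM-1119, and the groups did not overlap. Its log2 change was -1.63 ± 0.25 (SE, adjusted p = 0.000174 by limma), and it was -1.75 against DMSO replicate 3 alone. It was -0.86 with median centring and -1.24 with edgeR, and was not called in either, nor with quantile normalization, without limma's trend and robust options or without DMSO replicate 2. The region chr3:17983354-17984920, also in BALR6, had 38.9, 31.6 and 23.0 CPM against 12.5, 8.40 and 12.8 CPM (log2 change -1.38 ± 0.29 SE, adjusted p = 0.0228, limma). Between them lies chr3:17982069-17983232, with 25.02, 16.9 and 18.3 CPM against 5.94, 7.80 and 9.29 CPM. Its groups did not overlap, but its adjusted p was 0.222 (limma). Its WM-1119 mean of 7.68 CPM is under the limit of the rule, so the separation of its groups is in part set by the rule. Of the 8 tested regions within 50 kb of the first, all 8 had a lower mean with WM-1119 and in 7 the groups did not overlap; 5 of the 8 were under the level of 10 CPM and are not among the 863.

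The third call, chr20:11454264-11455733, lies 435084 bp from BTBD3 and overlaps no lncRNA. It had 33.4, 32.3 and 23.1 CPM against 11.9, 5.70 and 7.24 CPM, a log2 change of -1.76 ± 0.32 (SE; adjusted p = 0.00574, limma). Against DMSO replicate 3 alone its log2 change was -1.43, and it was not called there. Its WM-1119 mean of 8.28 CPM is under the limit of the rule, so that it was among the 863 through the DMSO libraries. The 3 other intergenic regions within 50 kb of it, which include chr20:11451677-11453321 with 29.2, 32.3 and 26.1 CPM against 13.4, 15.7 and 13.8 CPM, also had groups that did not overlap, with adjusted p of 0.229 to 0.310 (limma). Of these 3, 2 also had a WM-1119 mean under 10 CPM, and their separation is in part set by the rule.

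**Figure D4:**
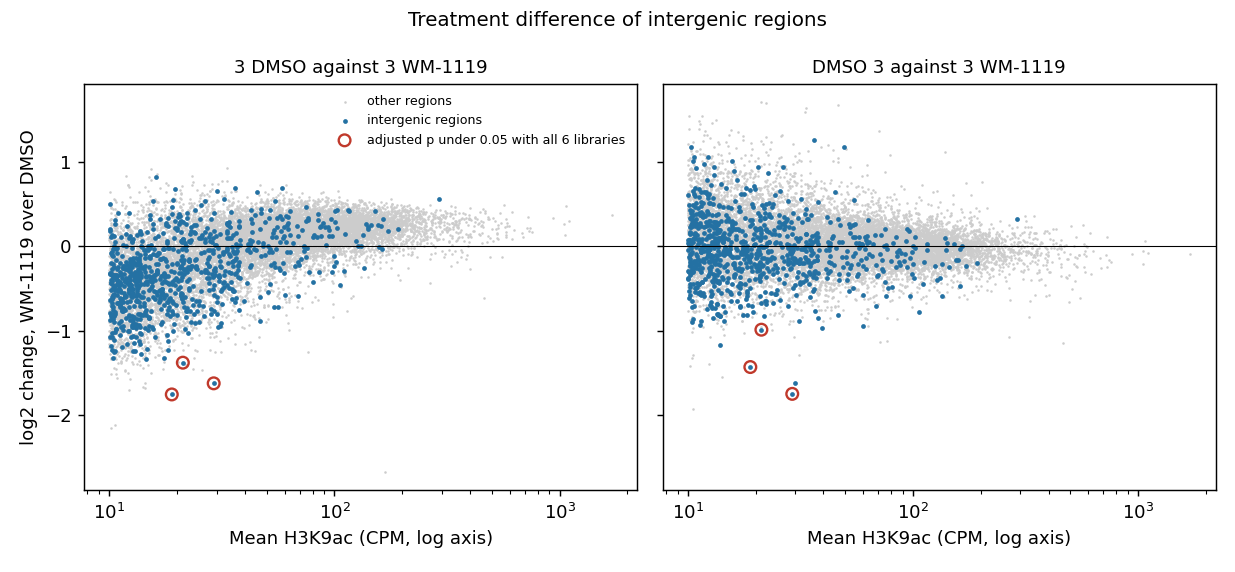
Log2 change (vertical, WM-1119 over DMSO, log2(CPM + 1) scale) against mean level (horizontal, CPM, log axis) of the intergenic regions and of all other regions of at least 10 CPM, with all 6 libraries (left) and with DMSO replicate 3 as the only control (right). Rings mark the 3 intergenic regions that passed the test with 6 libraries, at -1.76, -1.63 and -1.38; with DMSO replicate 3 alone they are at -1.43, -1.75 and -0.99.

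The next regions by p among those lower with WM-1119 did not pass. The region near BCL2 (chr18:63097825-63102041), which encodes an inhibitor of apoptosis, had 65.3, 59.3 and 57.6 CPM against 31.5, 31.9 and 33.7 CPM, a log2 change of -0.89 ± 0.20 (SE; adjusted p = 0.0513, limma). The groups did not overlap. The change was -0.81 against DMSO replicate 3 alone, -0.47 with edgeR and -0.12 with median centring, and that near DAD1 and near TENM3, described next, was -0.18 each with median centring. Near GLI3, a transcription factor of Hedgehog signalling, the values were 34.8, 25.4 and 17.1 against 8.37, 8.70 and 11.02 CPM. Near DAD1, in the T cell receptor alpha locus (TRA, TRAC), they were 47.3, 37.0 and 39.0 against 17.6, 19.6 and 25.7 CPM. In each of these the groups did not overlap, with adjusted p of 0.0886 and 0.118 (limma). Near TENM3 (chr4:180069880-180072737) the values were 55.6, 46.2 and 22.1 against 20.9, 17.2 and 20.1 CPM, so that DMSO replicate 3 lay next to the treated libraries. Near SLC39A10, which encodes a zinc transporter, they were 32.0, 17.7 and 14.6 against 9.03, 5.60 and 8.03 CPM, and both had an adjusted p of 0.190 (limma). The WM-1119 means near GLI3 and near SLC39A10 were 9.36 and 7.55 CPM, under the limit of 10 CPM. These regions passed it through the DMSO libraries, so the separation of their groups is in part set by the rule.

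None of the 21 regions higher at an unadjusted p under 0.05 passed the adjusted threshold. Beside the 176 lower ones, 9 of 21 against 11 of 176 held a lncRNA start, and 3 against 0 lay over a tRNA gene. The median level was 54.4 against 17.3 CPM. Of all 863, 17.3% held a lncRNA start and 2.55% lay over a tRNA gene. A WM-1119 mean under 10 CPM was found in 76 of the 176 and 0 of the 21, so the level of the lower ones is in part set by the rule. Among the 21 higher regions, the LOC100130992 start had the smallest p. Its log2 change was 0.57 ± 0.14 (SE; adjusted p = 0.125, limma), and 0.33 against DMSO replicate 3 alone, with no overlap between the groups. In LINC03027 (chr10:22436387-22438356), at the start of LOC105376449, the values were 37.5, 32.3 and 35.0 against 61.4, 54.7 and 49.98 CPM. The LINC02981 start, 23493 bp from SNX10, which encodes a sorting nexin, had 48.7, 40.0 and 43.7 against 68.5, 58.6 and 67.1 CPM. Log2 changes of the last 2 were 0.65 ± 0.20 and 0.54 ± 0.19 (SE; adjusted p = 0.292 and 0.326, limma), and were 0.64 and 0.55 against DMSO replicate 3 alone. Near AMER3 the values were 9.73, 13.9 and 10.7 against 19.4, 20.6 and 22.4 CPM. Near TMEM235, MLPH and HAAO the groups also did not overlap, with log2 changes of 0.66, 0.56 and 0.43, and 0.09, 0.29 and 0.11 against DMSO replicate 3 alone. Higher values at an unadjusted p under 0.05 were found at 3 regions of chromosome 10 within 210 kb, the tRNA gene region near EBLN1, the LOC100130992 start and the LINC03027 region, which are the only intergenic regions of the 863 in that stretch.

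**Figure D5:**
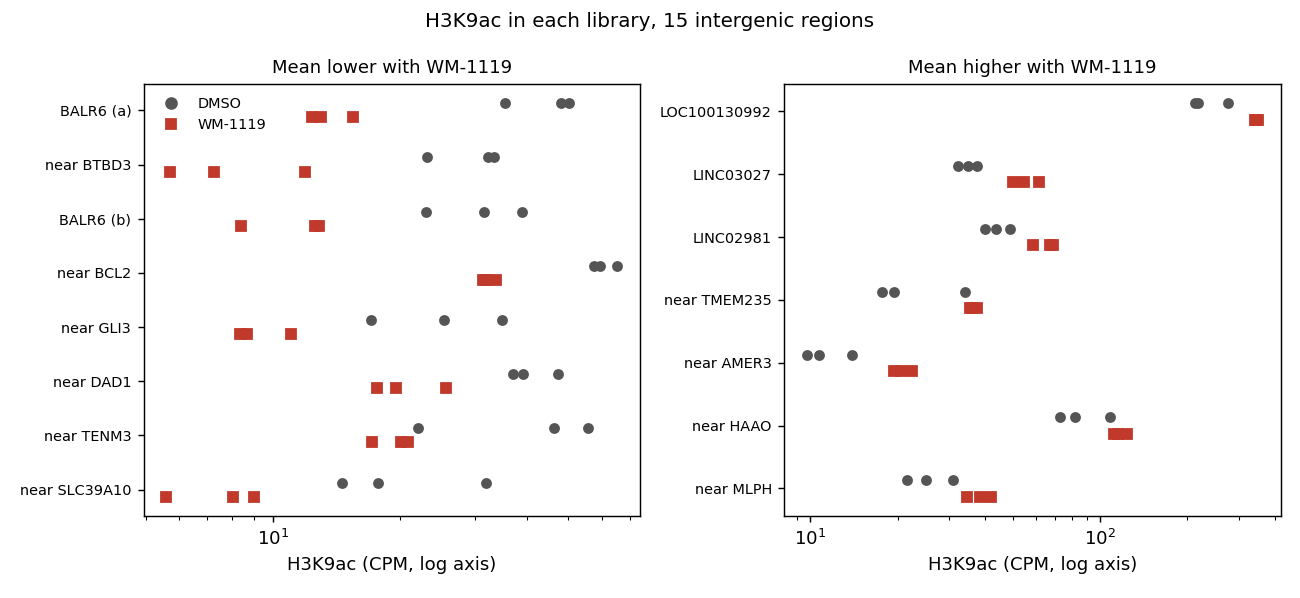
H3K9ac of each library (horizontal, CPM, log axis) for 8 intergenic regions with the smallest p among those lower (left) and 7 of those with the smallest p among those higher (right) with WM-1119, out of regions whose groups do not overlap; circles are DMSO libraries and squares WM-1119 libraries. Only BALR6 (a), BALR6 (b) and the region near BTBD3 passed the adjusted threshold.

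Among microRNA host genes, the start of MIR181A1HG (chr1:198933542-198938125) had 94.5, 123 and 152 CPM in DMSO and 77.9, 86.5 and 102 CPM with WM-1119. The groups overlapped, and the log2 change was -0.45 ± 0.17 (SE; adjusted p = 0.339, limma). With DMSO replicate 3, the highest of the 3 controls here, as the only control its log2 change was -0.78. The mature arms of MIR181A1 and MIR181B1, of which the 5p arms are printed above, lie 74412 to 74635 bp from this region on the minus strand. The MIR155HG start had 101.5, 106 and 115 against 86.3, 84.9 and 103 CPM (adjusted p = 0.455), and the MIRLET7A1HG start had 119.6, 127 and 147 against 156, 150.3 and 149 CPM, with a log2 change of 0.21 and no overlap between the groups (unadjusted p = 0.182, all by limma). Both miR-9 hosts had intergenic regions. The MIR9-3 hairpin itself lay in a region with 34.8, 26.96 and 28.1 against 16.95, 20.01 and 18.9 CPM (log2 change -0.65), while the MIR9-3HG start had 48.7, 43.9 and 40.2 against 49.1, 39.7 and 40.9 CPM. At MIR9-2HG, a region holding the start of MEF2C-AS2 had 37.5, 27.7 and 17.4 against 29.7, 54.6 and 49.98 CPM (log2 change 0.70). The region holding MIR4437, in LINC01934, had 75.1, 70.1 and 57.1 against 41.4, 39.3 and 40.4 CPM (log2 change -0.72, unadjusted p = 0.000408, limma). It did not pass the adjusted threshold. The region holding MIR193A had 45.9, 50.1 and 56.0 against 51.3, 46.6 and 43.8 CPM.

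Transfer RNA genes are short genes read by RNA polymerase III. Of the 22 regions over them, 10 had a lower mean with WM-1119, and the median log2 change was 0.00. At an unadjusted p under 0.05, 0 were lower (0%) and 3 higher (13.6%). The shares were 20.4% and 2.43% of the 863, and 10.8% and 2.58% of all tested regions. Among tested regions at 10 CPM or more they were 8.71% and 7.99%. The tRNA shares rest on few regions, and no difference from other regions was tested. The highest, over TRI-TAT2-1 near HAAO, had 82.0, 72.4 and 108 CPM against 112, 115 and 124 CPM, and that over TRV-CAC1-1 near CFAP126 had 77.9, 69.3 and 113 CPM against 110.1, 116 and 115 CPM. In both, DMSO replicate 3 lay near the treated libraries, with log2 changes of 0.11 and 0.00 against it alone. The cluster on chromosome 11 in LOC102723575, with 4 tRNA genes in the region from 59550117, had 64.0, 67.8 and 89.0 against 69.4, 66.4 and 83.0 CPM.

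To place them, 5 gene lists were used to describe the regions by their neighbours or hosts, beside a median log2 change of -0.47 over all tested regions and 0.06 over those of at least 10 CPM. At an unadjusted p under 0.05, 10.8% of all tested regions and 20.4% of the 863 were lower, and 2.58% and 2.43% higher. Among tested regions at 10 CPM or more, 8.71% were lower and 7.99% higher. Of 50 lncRNAs and microRNA hosts of myeloid cells and leukaemia, 10 had an intergenic region, 17 regions in all. Of these 2 were called, both in BALR6, and 6 were lower (35.3%) and 1 higher at that threshold, with a median of -0.45 and -0.33 against DMSO replicate 3 alone. The 6 include the 3 neighbouring BALR6 regions. A BALR6 region and a region in the body of LINC-PINT among the 6 had WM-1119 means of 7.68 and 8.45 CPM. They passed the limit on level through the DMSO libraries alone, so this share is in part set by the rule. LINC-PINT, a p53-responsive lncRNA, had 79.2, 77.0 and 58.9 against 79.0, 59.1 and 46.8 CPM at its start, and the groups overlapped. The housekeeping and small RNA hosts had 2 regions, the starts of DANCR and NORAD, a cytoplasmic RNA that binds Pumilio proteins. DANCR had 57.0, 81.6 and 85.1 against 57.5, 88.8 and 69.0 CPM and NORAD 18.1, 16.2 and 18.2 against 15.4, 17.4 and 18.4 CPM.

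Neighbours of haematopoietic transcription factors made up 50 regions at 22 of 62 genes, of which 0 were called, 12 were lower (24%) and 1 higher at an unadjusted p under 0.05; the median was -0.41, and -0.06 against DMSO replicate 3 alone. Near GFI1, a transcriptional repressor needed for granulocyte development, the values were 43.1, 41.6 and 33.0 against 21.8, 24.3 and 25.7 CPM. In SLC39A13-AS1 (chr11:47389871-47392268), near SPI1, which encodes PU.1, they were 43.1, 41.6 and 42.6 against 25.5, 29.9 and 32.4 CPM, and in neither case did the groups overlap. The stronger region beside it in the same lncRNA (chr11:47392382-47396429) had 127, 117 and 187 against 150.1, 173 and 180 CPM, and its groups overlapped. Its log2 change was 0.25, and -0.16 against DMSO replicate 3 alone. The LOC124903741 start, 59265 bp from IRF8, a transcription factor of monocytes, had 100.1, 158 and 179 against 74.4, 152 and 147 CPM, and the groups overlapped. Near BCL6 the values were 52.8, 42.4 and 51.6 against 61.6, 64.8 and 59.7 CPM. The LINC01220 start near FOS, the LINC01132 start near IRF2BP2 and the region near CD34 had overlapping groups, with log2 changes of 0.12, 0.04 and 0.28.

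Neighbours of KMT2A fusion targets made up 14 regions at 6 of 30 genes, of which 0 were called, 4 were lower (28.6%) and 1 higher at an unadjusted p under 0.05, with a median of -0.38 and -0.26 against DMSO replicate 3 alone. The region near MBNL1, a splicing regulator (chr3:152218499-152223158), had 84.8, 73.2 and 53.9 against 40.1, 42.1 and 43.6 CPM, without overlap (adjusted p = 0.208, limma). A further MBNL1 neighbour, in LINC02917, had 37.5, 37.0 and 48.9 against 39.2, 45.8 and 44.5 CPM. Next to MIR1915HG, the region near SKIDA1 had 72.3, 67.0 and 95.4 against 60.1, 72.3 and 82.2 CPM. Neighbours of signalling and surface genes made up 16 regions at 11 of 46 genes, with 0 called, 4 lower (25%) and 0 higher at an unadjusted p under 0.05. Their median of -0.32 became 0.37 against DMSO replicate 3 alone. The shares of these lists rest on few regions, and no difference from the other regions was tested. The lists also share regions. The region at the start of MEF2C-AS2 was the 1 higher region of the fusion target, transcription factor and myeloid lists alike. Near BCL2 the same regions counted as lower in the fusion target and the signalling list. Some lower regions passed the limit on level through the DMSO libraries alone. They include a region near BCL2 and a region near IKZF1, with WM-1119 means of 6.19 and 7.06 CPM. The shares are therefore in part set by the rule. In LOC107984859 near SOCS1, an inhibitor of cytokine signalling, the values were 30.6, 29.3 and 23.7 against 13.9, 16.9 and 17.2 CPM, without overlap, and near PTGER4 they were 59.8, 38.5 and 26.9 against 37.9, 21.01 and 26.1 CPM. The 2 regions by SOCS3 and that in VIM-AS1 had overlapping groups, with log2 changes of 0.10, 0.06 and 0.29.

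The intergenic regions were often neighbours of each other. Joined where under 50 kb apart, the 863 formed 578 runs, of which 418 were single regions and 67 held 3 or more. In 35 of the 67 all regions had a lower mean with WM-1119, and in 1 all had a higher mean. The summed CPM of the 3 treated libraries lay below all 3 controls in 26 runs and above in 1. Of single regions, 23.5% of the 863 were separated in this way below and 3.82% above. Over all tested regions these shares were 13.2% and 3.76%, and at 10 CPM or more 8.56% and 11.3%. Some runs, such as that in BALR6, hold regions that passed the limit on level through the DMSO libraries alone, so their separation is in part set by the rule. With each library centred on its median, all regions were lower in 2 runs and higher in 37. Of all 863 regions, 640 were lower without centring (74.2%) and 113 with it. Without centring, 77.2% of all tested regions were lower, and 42.4% of those at 10 CPM or more. Runs of other regions were not counted. The run with the most regions, 8 over 141 kb near IER5L with LINC01503 and LINC02913 (chr9:129320145-129461523), summed to 209, 249.5 and 222 CPM against 184, 257 and 209 CPM, and the groups overlapped. The 7 regions near TOMM20 (chr1:234944658-235013108), in LINC02971, LINC03108 and LNCATV, summed to 382, 302 and 315 against 266, 206 and 233 CPM. All 7 were lower, 5 at an unadjusted p under 0.05, and the groups of sums did not overlap. The 7 regions near SLC1A4 (chr2:64852474-64947193), with LINC01800 and LINC02245, summed to 227, 209 and 202 against 183, 224 and 205 CPM, and the groups overlapped.

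The most isolated regions were 2 on chromosome 5, 1669720 and 1668357 bp from MAT2B, and 1 on chromosome 4, 1629670 bp from TENM3. At chr5:165189074-165189976 the values were 15.3, 16.9 and 14.8 against 11.9, 7.30 and 6.85 CPM, and at chr5:165187711-165188985 they were 19.5, 16.2 and 18.1 against 11.01, 8.20 and 10.2 CPM. The region chr4:179816825-179817943 had 16.7, 12.3 and 9.22 against 6.83, 9.20 and 7.24 CPM. Their adjusted p were 0.354, 0.345 and 0.417 (limma). With WM-1119 means of 8.68, 9.79 and 7.76 CPM they passed the limit on level only through the DMSO libraries, so the separation of the groups is in part set by the rule.

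At the edges of the rule, the weakest region kept had a mean of 10.02 CPM (near PSMA6) and the strongest left out 9.98 CPM (near SYVN1). The nearest kept lay 10040 bp from a coding gene (NEMF) and the nearest left out 9983 bp away (in CHROMR, 93.3 CPM). The widest kept was 4802 bp (in LOC105374570) and the narrowest left out for its width 5301 bp (ANXA2R-OT1, 296 CPM); 8 regions far from coding genes were left out for width.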

How the data were processed

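H3K9ac was measured by ChIP-seq in 6 MOLM-13 libraries, 3 with DMSO and 3 with WM-1119. Alignment and peak tools named in the submitters' processing notes are Bowtie2, SAMtools, MACS2 and bedtools, without versions, and the build is hg38. How the regions were merged is not stated there. The authors deposited 1 matrix whose values are named TPM but are CPM: each column sums to 1000000 and its values are whole multiples of 1 read (100% of those up to 100 reads, within 0.02 of a read). No input was subtracted as far as the file shows.

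Starts were moved by 1 to count from 1, and regions were annotated with RefSeq genes and start sequences of GRCh38.p14. The comparison used limma 3.58.1 in R 4.3.3 (trend and robust) on log2(CPM + 1), over the 44763 regions whose mean reached 1 CPM, with Benjamini-Hochberg adjustment; all 863 intergenic regions passed that filter. edgeR 4.0.16 was run on reads recovered from the CPM steps of 5 libraries, WM-1119 replicate 2 having a step too near a round number. The background of a library was read from regions of 500 to 1200 bp, as the 10th percentile of their CPM per bp. With DMSO replicate 3 as the only control, its spread is taken from the treated libraries. The limma step was tested on simulated data. Correlations of same-numbered libraries did not pair the samples.

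The regions, the gene lists and the tests were chosen with earlier results of these data known. Regions named are the 8 strongest with and without a lncRNA, all called, the 8 smallest p per direction without overlap between groups (1 of the higher ones is not reported here), up to 6 per list by level, the 3 farthest, the 3 runs with the most regions and those at the edges of the rule. Regions named outside these (microRNA hosts, tRNA genes, and some neighbours) were picked after their values were seen.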

Additional observations from a re-analysis of the deposited data

How the results depend on the processing

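No change of the 16 regions chosen by smallest p reversed its sign under any of the 17 alternatives, but sizes did change: under median centring the BALR6 region with the smallest p went from -1.63 to -0.86, that near BCL2 from -0.89 to -0.12, and those near DAD1 and TENM3 from -0.95 and -0.96 to -0.18 each. The 3 calls were lost under median centring, edgeR, quantile normalization, limma without trend and robust, and without DMSO replicate 2. The median log2 change of all intergenic regions, of those with a lncRNA and of those without reversed to 0.47, 0.54 and 0.43 under median centring and to 0.12, 0.17 and 0.069 with edgeR on 5 libraries, and the cause was not tested. Over all tested regions and over the intergenic ones, the calls were 76 and 9 with background subtracted, 2 and 1 for a filter of at least 10 CPM, 2 and 0 with median centring, 1 and 0 with quantile normalization, and 0 and 0 with edgeR or with limma without trend and robust. Intergenic regions lower and higher at an unadjusted p under 0.05 numbered 75 and 38 with DMSO replicates 1 and 2 left out, 110 and 2 without trend and robust, 2 and 141 with median centring, and 95 and 46 with quantile normalization. With edgeR, 22 were lower; 11 were higher at 25 kb or more from coding genes, and 66 lower at 20 CPM or more, counts over fewer regions. The median without a lncRNA was -0.053 with DMSO replicates 1 and 2 left out and -0.059 at 20 CPM or more. With quantile normalization it was -0.023, and that of all intergenic regions -0.029. The difference in the share of CPM was -0.14 percentage points with DMSO replicates 1 and 2 left out and -0.044 at 20 CPM or more. Leaving out 1 library at a time gave 0 to 19637 calls over all regions, 0 to 340 intergenic calls, 98 to 373 lower and 8 to 61 higher, the highest each time without DMSO replicate 3. The replicate numbers did not pair the libraries (correlations of 0.22, 0.05 and 0.33); a replicate block gave 496 calls, 39 of them intergenic, and 36 higher at an unadjusted p under 0.05. At 10 CPM, DMSO replicate 1 holds 7.19 reads, so changes of weak regions rest on few reads in that library.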

Other observations

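In 20 of the 863 intergenic regions (2.32%) replicate 3 was at least 1.5-fold lower than replicates 1 and 2 in both groups, and in 0 it was that much higher in both. The share was 2.47% inside coding genes and 0.255% at coding gene ends. The region near FOS (chr14:75258108-75260108), an immediate early gene, had 47.3, 62.4 and 20.9 CPM with DMSO and 50.9, 89.4 and 24.95 CPM with WM-1119. Near ANXA1 the values were 18.1, 20.02 and 8.96 against 23.3, 19.4 and 9.37 CPM. In VIM-AS1 they were 27.8, 17.7 and 10.7 against 24.7, 27.7 and 14.6 CPM. The count was chosen after the values were seen, depth and background differ between the same libraries in the DMSO group, and their part was not tested.

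The 6 intergenic regions that run from chr4:180069880 to 180135784, over 1311829 bp from TENM3, summed to 325, 327 and 316 CPM with DMSO and to 230.5, 274 and 314 CPM with WM-1119. The strongest of them, at 172 CPM, had a log2 change of 0.18, while 4 of the others were lower at an unadjusted p under 0.05.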
